A study of Schizosaccharomyces pombe with 24 samples.

Results

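Fission yeast (Schizosaccharomyces pombe) carries a single set of RNA interference (RNAi) genes that act in heterochromatin. The genes described here are the 9 of that set that were chosen by name: ago1, dcr1, rdp1, tas3, chp1, hrr1, cid12, arb1 and arb2. They are 9 of 12633 genes, and of 5113 protein-coding genes, in the genome annotation that the authors deposited for strains with the reporter at the mating-type region. All 9 names matched exactly 1 gene row, with 1 mRNA each.

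In this pathway, transcripts of pericentromeric repeats are made double-stranded and cut by Dicer into small interfering RNAs. Argonaute carries these RNAs, within the RITS complex of Ago1, Chp1 and Tas3, to nascent transcripts at the repeats. RITS works with the RNA-directed RNA polymerase complex of Rdp1, Hrr1 and Cid12, and brings the Clr4 methyltransferase, which methylates lysine 9 of histone H3 (H3K9). A further complex, ARC, holds Ago1 with Arb1 and Arb2 while small RNAs are loaded. Transcription of both strands can supply double-stranded RNA to this machinery, and convergent gene pairs, RNAi genes among them, have been studied in fission yeast for that reason. The layout of these genes and of the RNAs annotated across them is therefore described below.

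The study made 24 ChIP-seq libraries against H3K9me2 and H3K9me3, each a group of its own, from strains that carry 10 tet operators beside ade6+. In 14 libraries this reporter replaced ura4 (ura4D::10xteto-ade6+, called ectopic), with the genotypes clr4D, swi6D, swi6Dmst2D, swi6Dset1D, swi6Dmst2Dset1D, set1Dmst2D and WT. In 10 libraries it replaced cenH (cenHD::10xteto-ade6+, called endogenous), with swi6D, swi6Dmst2D, swi6Dset1D, swi6Dmst2Dset1D and WT. All cells were grown to log phase in YEA medium at 32 °C and fixed with formaldehyde. No labelled genotype deletes an RNAi gene. H3K9 methylation at the 9 genes was not analysed here, and the values below are lengths, positions and counts from annotations, which have no replicate error.

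The 9 genes lay on all 3 chromosomes, with 4 on I, 1 on II and 4 on III, 6 of them on the plus strand. The nearest to a centromere was tas3 (SPBC83.03c, chromosome II, 1514006 to 1516179, minus strand), 86238 bases away, and the farthest was rdp1 at 2424625 bases. Long terminal repeats, remnants of retrotransposons, lay no closer than 6582 bases (hrr1). None of the 9 genes thus overlapped a centromere or an annotated long terminal repeat.

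The RNAi genes were long. Their coding sequences had a median of 2505 bases (966 to 4125), against a median of 1137 bases over all 5113 protein-coding genes, whose upper quartile was 1752 bases. The longest was that of dcr1, followed by rdp1, hrr1, chp1 and ago1, all above the upper quartile of the genome. Those of cid12, arb1 and arb2 (1011, 1200 and 966 bases) stayed near the genome's median. Coding sequences were also slightly poorer in G and C, with a median of 37.5% against 39.6% over all protein-coding genes, and all 9 lay between 36.2% and 39.9%.

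**Figure D1:**
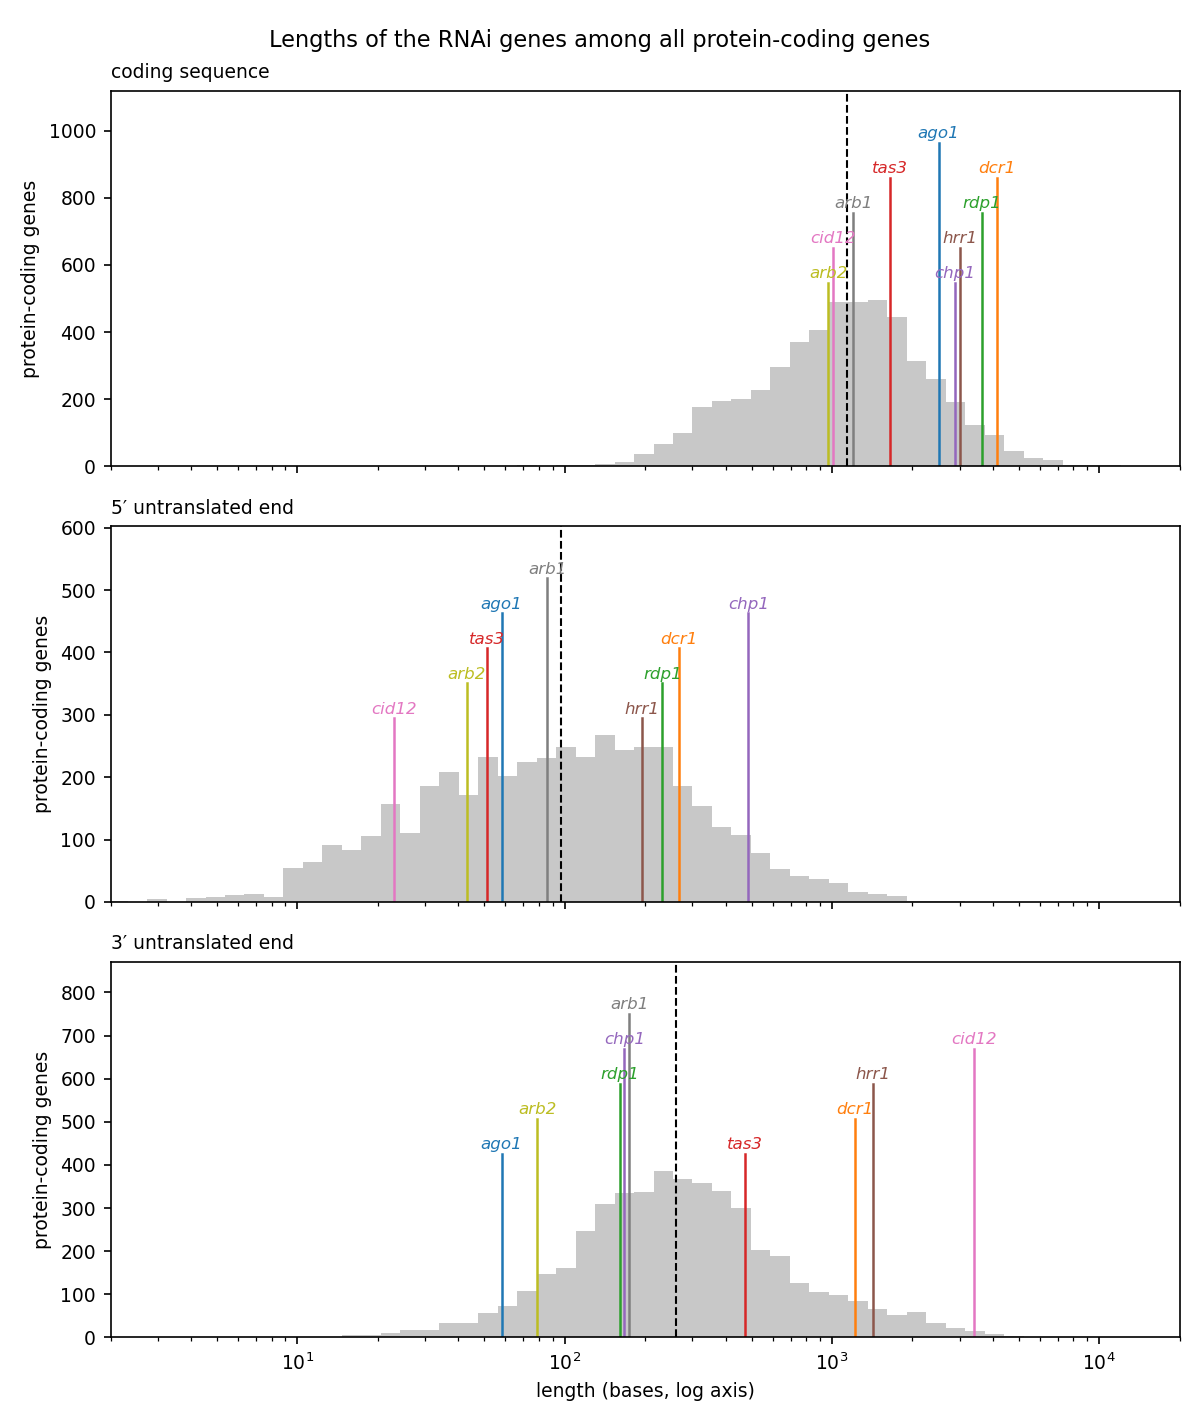
Lengths in bases (log axis) of the coding sequence, the 5′ and the 3′ untranslated end for all protein-coding genes with such an end (grey histogram, dashed line at the median), with the 9 RNAi genes as labelled vertical lines. In the bottom panel dcr1, hrr1 and cid12 lie at 1217, 1420 and 3401 bases and ago1 at 58 bases.

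In the RITS complex, ago1 (SPCC736.11, chromosome III, 332272 to 335263, plus strand) encodes Argonaute, the slicer protein that binds small RNAs. Its coding sequence of 2505 bases, for 834 amino acids, was split by 1 intron of 371 bases. Both untranslated ends were 58 bases long, and its 3′ end was shorter than in most genes (4.34th percentile). The gene for Chp1, the chromodomain protein that holds RITS on methylated H3K9, was chp1 (SPAC18G6.02c, chromosome I, 2210810 to 2214345, minus strand). It coded for 960 amino acids without an intron, behind a 5′ untranslated end of 486 bases, at the 93.4th percentile of genes with such an end. Tas3 is the scaffold that joins Chp1 to Ago1. Its gene coded for 549 amino acids in 1 exon of 1650 bases, with untranslated ends of 51 bases (5′) and 473 bases (3′).

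Among the genes of the polymerase complex, rdp1 (SPAC6F12.09, chromosome I, 1324941 to 1329061, plus strand) encodes the RNA-directed RNA polymerase that makes the second strand. It coded for 1215 amino acids in a single exon of 3648 bases. An intron of 80 bases lay in its 5′ untranslated end, after 65 bases of transcript and 167 bases before the start codon. Introns in an untranslated end were found in 155 of the 5113 protein-coding genes (3.03%). The helicase gene hrr1 (SPCC1739.03, chromosome III, 2027653 to 2032398, plus strand) coded for 999 amino acids in 4 exons and had a 3′ untranslated end of 1420 bases. The gene for Cid12, a nucleotidyltransferase of the poly(A) polymerase family, was cid12 (SPCC663.12, chromosome III, 1653839 to 1658273, plus strand). It coded for 336 amino acids, yet its 3′ untranslated end was 3401 bases long, the 23rd longest of 4725 and 76.7% of the mRNA. A 5′ untranslated end of 23 bases preceded this coding sequence.

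Dicer, the ribonuclease that cuts double-stranded RNA, is encoded by dcr1 (SPCC188.13c, chromosome III, 1503142 to 1508750, minus strand). It was the longest of the 9 genes at 5609 bases (98.4th percentile), with 1374 amino acids in 1 exon and untranslated ends of 267 bases (5′) and 1217 bases (3′). The Argonaute-binding proteins of ARC had the genes arb1 (SPAC140.03, chromosome I, 1899966 to 1901605, plus strand) and arb2 (SPAC13G7.07, chromosome I, 2308983 to 2310294, plus strand). They coded for 399 and 321 amino acids. Their coding sequences held more introns than those of the other members, 4 in arb1 and 5 in arb2.

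Untranslated ends varied widely within the set. At the 5′ end the median was 86 bases (23 to 486), against 97 bases over 4514 genes. The 3′ end had a median of 174 bases (58 to 3401), against 261 bases over 4725 genes. So the typical 3′ end was short, while 3 of the 9 genes (dcr1, hrr1 and cid12) had one of at least 1000 bases, as did 8.39% of all protein-coding genes. In the range of gene lengths of the set (1312 to 5609 bases), 11.6% of 3490 protein-coding genes had such an end. This threshold was chosen after the lengths were seen.

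Coding introns were present in 4 of the 9 genes (ago1, hrr1, arb1 and arb2), a share near the 46.5% of all protein-coding genes. These 4 held 13 introns, and the other 5 members held none in the coding sequence. The intron of ago1, at 371 bases, was at the 98.9th percentile of 5051 coding introns, and 2.18% of them had at least 300 bases. The remaining 12 introns were short, with a median of 41.5 bases (39 to 61), against 55 bases for all coding introns. Their places differed as well. The ago1 intron came after 5.15% of the coding bases, those of hrr1 after 77.9%, 93.3% and 98.4%, those of arb1 all within the first 38.9%, and those of arb2 between 19.4% and 91.1%. Over the 13 introns the median place was 51.6%, against 25.1% for all coding introns. The third coding exon of arb1, between introns of 39 bases each, was only 18 bases long, at the 1.72nd percentile of inner coding exons.

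**Figure D2:**
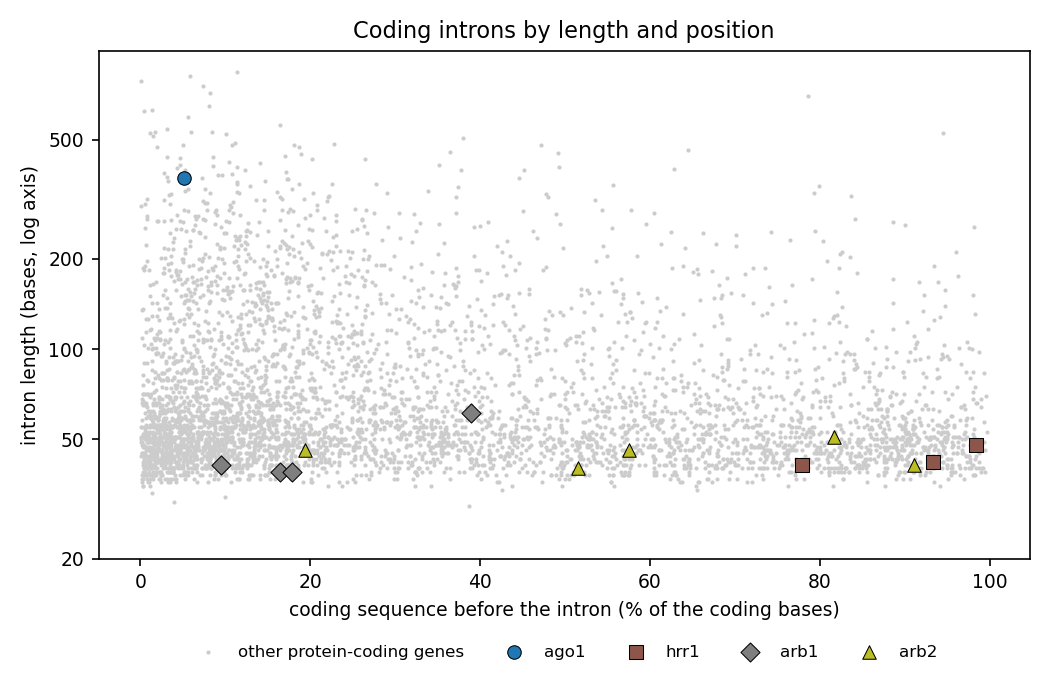
Length of each coding intron (bases, log axis, introns of at least 20 bases) against the percentage of coding bases before it, for ago1, hrr1, arb1 and arb2 (large symbols) and other protein-coding genes (grey points). The ago1 intron of 371 bases stands above the 12 other introns of the set, which lie between 39 and 61 bases, and the hrr1 introns lie after 77.9% of the coding bases or more.

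Splice sites of these introns were read from the reference assembly ASM294v3, because the intron lengths of the 9 genes were the same there. All 13 introns began with GT and ended with AG. The donor form GTANGT was found in 4 of 13 introns, against 54.2% of 5025 coding introns of at least 30 bases. A branch-point motif was taken as CTNAC or CTNAT on the gene's strand, within the last 30 intron bases but before the closing 3. It was found in 6 of 13 introns, against 79.9% of all. The arb2 introns had none of these motifs in any of the 5. The ago1 intron and hrr1 intron 2 had none either. The 4 arb1 introns and the other hrr1 introns each had one. These letters are a description of the window and do not show where splicing takes place. The last 30 bases of the arb2 introns are shown because they lack the motif, and those of arb1 intron 2 and hrr1 intron 1 because they hold it. Capitals mark the closing 3 bases and, where present, the motif (ASM294v3, plus strand).

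arb2 intron 1 (I:2309213-2309258): attcaggagttaacttgcaattgaaatTAG
arb2 intron 2 (I:2309570-2309609): atttattcaataatgtttaccaaaattTAG
arb2 intron 3 (I:2309668-2309713): atatccaatgaaatttttaacaaagaaTAG
arb2 intron 4 (I:2309947-2309997): atggaaataaataataactaagactttCAG
arb2 intron 5 (I:2310089-2310129): ttgacttagaacaaaattttaacaagtTAG
arb1 intron 2 (I:1900290-1900328): caaaatattgtgtcttaCTAACacttcTAG
hrr1 intron 1 (III:2031993-2032033): taaatacaatttcctaCTAACagacctTAG

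The first 12 bases of the arb2 introns show the donor sites in capitals. Intron 2 alone began with GTATGT, which fits the form GTANGT.

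arb2 intron 1: GTAGGGtaatca
arb2 intron 2: GTATGTgcaaat
arb2 intron 3: GTAAGAttgatt
arb2 intron 4: GTGAGAaaataa
arb2 intron 5: GTATGGaaacct

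All 9 RNAi genes were overlapped by at least 1 RNA gene without a coding sequence on the opposite strand, called an antisense RNA gene here. Over all protein-coding genes the share was 75.6%, and in the length range of the set it was 80.3%. The 15 antisense RNA genes over the 9 members were all long non-coding RNAs (lncRNAs), of 313 to 2175 bases with a median of 782. Every one of the 15 shared bases with a coding sequence. The most were found at ago1 and tas3, with 3 each. Across ago1 ran SPNCRNA.6799, SPNCRNA.6800 and SPNCRNA.6801, which shared 167, 1536 and 610 bases with the gene and together covered 83.4% of its coding bases. Across tas3 ran SPNCRNA.5219, SPNCRNA.5220 and SPNCRNA.5221, with 409, 313 and 444 shared bases. A single lncRNA of 2175 bases, SPNCRNA.771, covered arb1 from end to end.

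Coverage by antisense RNA genes varied widely among the other members. In dcr1 SPNCRNA.7401 shared 1395 bases, all coding, and SPNCRNA.7402 shared 326 bases at the 5′ end. SPNCRNA.2578 took 1412 bases of rdp1, including its untranslated intron, and SPNCRNA.3037 took 902 bases of arb2 (68.8% of the gene). The chp1 gene was covered least in its coding sequence, where SPNCRNA.2989 shared 79 coding bases (2.74%) beside the whole 5′ untranslated end of 486 bases. In hrr1 SPNCRNA.7596 shared 363 bases and SPNCRNA.7597 shared 1228 bases, and in cid12 SPNCRNA.7455 shared 506 bases. The median share of coding bases under an antisense RNA gene was 47.8% in the 9 members, against 48% over all protein-coding genes. The median share of the whole gene was 34.3% in the members, against 41.2% over all protein-coding genes.

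Of the 15 antisense RNA genes, 9 spanned a start codon, 1 in each member, and the others lay within the gene body. Each of the 9 start codons thus lay under one, against 49.7% of protein-coding genes (51% in the length range of the set). The annotated transcription start lay under one in 8 of the 9, all but hrr1, against 43.2% of protein-coding genes. With the transcription starts of the second deposited annotation, described below, the same RNA genes lay over 5 of the 9 (ago1, dcr1, tas3, cid12 and arb1), against 39.7% of 5095 protein-coding genes found in both. In hrr1 the lncRNA SPNCRNA.7596, which runs towards the start of the gene, ended inside the 5′ untranslated end and covered 125 of its 195 bases. The annotated transcription end lay under an antisense RNA gene in 1 of the 9, arb1, against 24.1% of protein-coding genes. These positions were looked at after the overlaps had been seen, and they carry no test. Where a gene has no annotated untranslated end, its coding start or end stood for the transcription start or end.

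**Figure D3:**
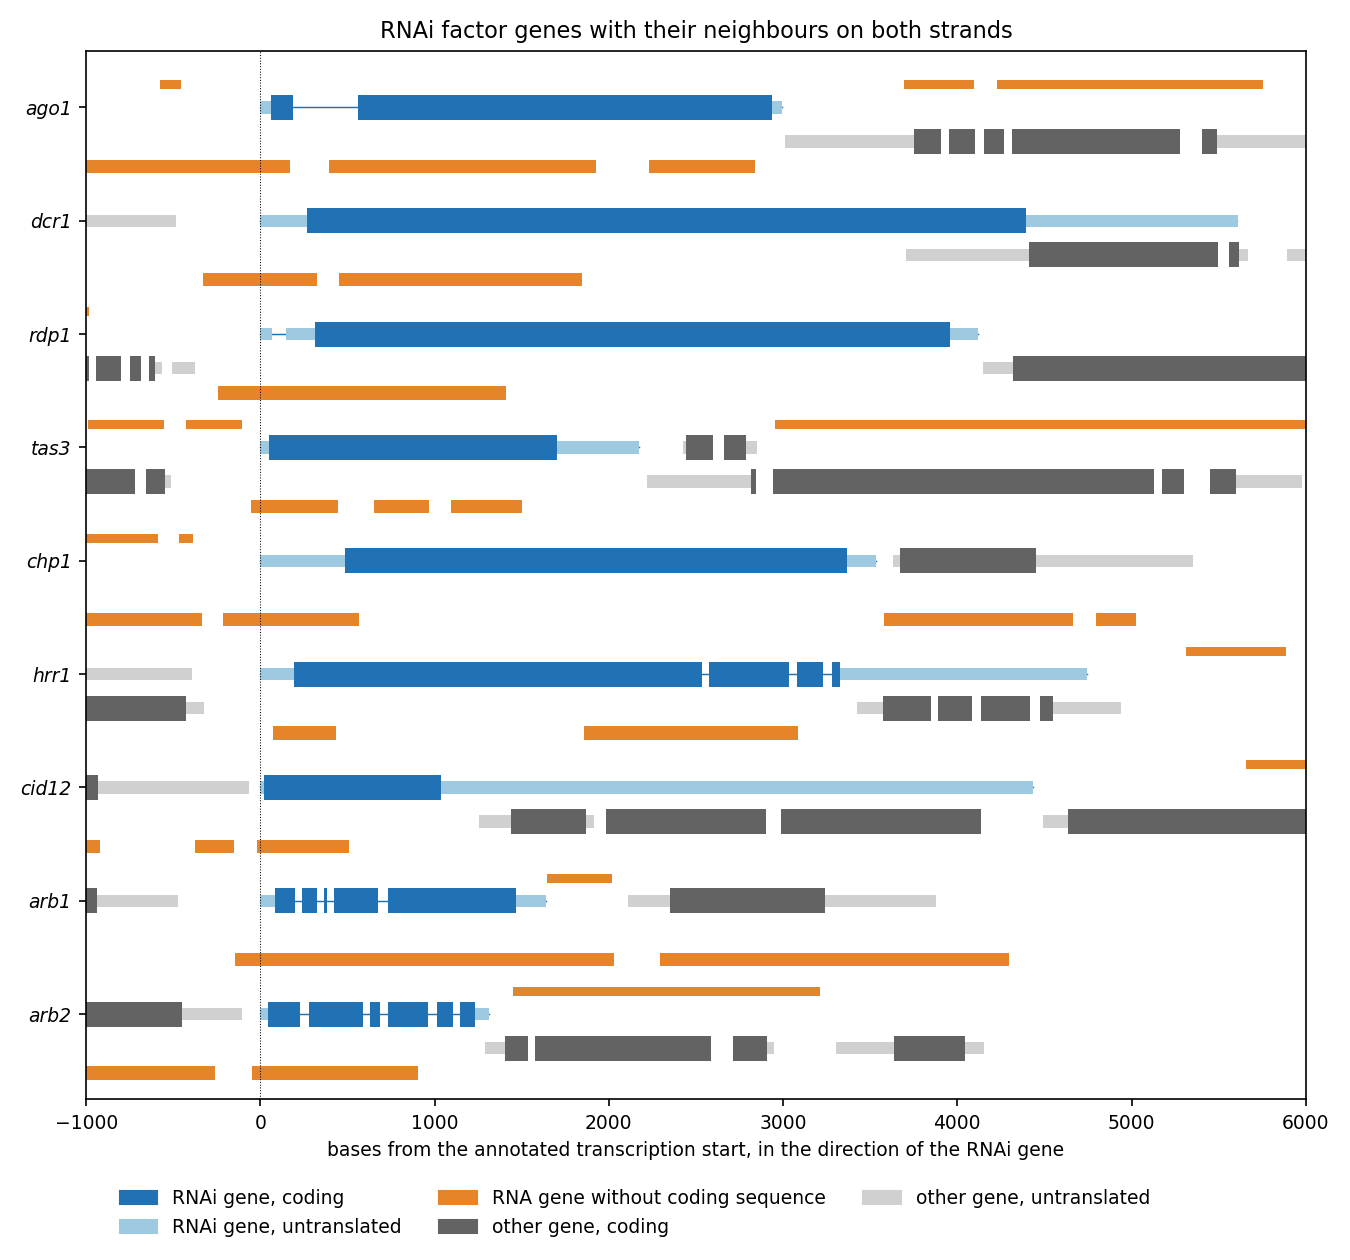
The 9 RNAi genes drawn to scale from their transcription start in the endogenous-site annotation (x axis, bases), with coding sequence as thick and untranslated ends as thin blue bars. Grey bars are other protein-coding genes, on the line of the RNAi gene for the same strand and below it for the opposite strand. Orange bars are RNA genes, above for the same strand and below for the opposite strand. An orange bar below the gene crosses the start in every row except hrr1, and grey coding bars lie below the 3′ untranslated ends of dcr1, hrr1 and cid12.

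The bases around the 9 start codons are shown because each lay under an annotated antisense RNA gene. Capitals mark the ATG, with 15 bases before and 12 after it, on the strand of the gene (ASM294v3). An A at the third base before the ATG, the commonest base there in the genome (60.9% of 5110 protein-coding genes), was found in ago1, hrr1 and cid12, 3 of the 9. A G stood there in rdp1, chp1 and arb1, against 15.9% of all.

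ago1 (III:334122-334151, plus): ttcagagtgagtaggATGtcgtataaacca
chp1 (I:2213845-2213874, minus): acccgctaccttgaaATGgtatctgttaaa
tas3 (II:1516114-1516143, minus): tgagctacgattttaATGgagaaaggaatc
rdp1 (I:1325238-1325267, plus): tggcaatgtaaagcaATGgcagtttcgtta
hrr1 (III:2029640-2029669, plus): cttttcttttttattATGgaacaagtacaa
cid12 (III:1655654-1655683, plus): tgccatttcttaagaATGggtaaagtcctg
dcr1 (III:1510276-1510305, minus): ttattttctttttgaATGgatatttcaagt
arb1 (I:1900037-1900066, plus): tgaagtgattgagtgATGgcagaaggtgat
arb2 (I:2309011-2309040, plus): aagtaggccttacatATGtttaggaaaaag

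Within 2000 bases of the 9 genes lay 69 other genes, none of them near more than 1 member. They comprised 39 lncRNA genes, 27 protein-coding genes, 2 small non-coding RNA genes and 1 tRNA gene. The number per member was 5 (dcr1 and rdp1) to 10 (ago1 and tas3), with a median of 8 against 7 over all protein-coding genes. Of these, 20 overlapped a member, and all 20 were on the opposite strand (15 lncRNA and 5 protein-coding genes). No gene overlapped a member on its own strand. How often this holds over all protein-coding genes was not counted, so it is not given as a trait of the set.

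The protein-coding gene next to the 3′ end was convergent, that is transcribed towards the member, for 7 of the 9 genes, against 52.4% of protein-coding genes (52.7% in the length range of the set). The exceptions were chp1 and arb1, which were followed in the same direction by aim18 at 93 bases and by ctr1 at 470 bases. On the 5′ side 5 of the 9 (ago1, rdp1, tas3, chp1 and hrr1) had a divergent neighbour, near the 52.9% of all protein-coding genes. The closest protein-coding genes on the 5′ side were saf1, 63 bases from cid12, and met16, 104 bases from arb2, both in the same direction as the member. Then came mrpl22, a divergent gene 325 bases from hrr1. The most distant was mrps8, 1512 bases from ago1.

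The convergent ends took 2 forms, close ends and long overlaps. Close ends were found for ago1, whose neighbour mmi1 ended 17 bases beyond it, for rdp1, 29 bases from ade3, and for tas3, 42 bases from ucp8. The mmi1 gene encodes a YTH-family RNA-binding protein that removes meiotic transcripts, and ade3 encodes an enzyme of purine synthesis. The arb2 gene shared its last 24 bases with crb3, a gene for a WD-repeat subunit of the rixosome, an RNA-processing complex. Of the 7 convergent members 3 overlapped their neighbour (dcr1, hrr1 and arb2), against 55.8% of 2678 convergent genes. In these counts a gene lying wholly inside another was not taken as its neighbour, in the set and in the genome alike. The cid12 gene, which holds whole genes of the opposite strand, was therefore not counted as overlapping. An overlap of at least 1000 bases was found for dcr1 and hrr1, against 10.2% of these genes. The median distance was 17 bases apart for the 7, against an overlap over all 2678 (median -28.5, where a negative value is shared bases).

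These short stretches are shown whole on the plus strand of ASM294v3, since they are all that separates or joins the annotated transcripts. A and T made up 10 of 17, 20 of 29 and 19 of 24 bases, against 63.9% of the genome.

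between ago1 and mmi1 (III:337071-337087): gcccacaacttttactt
between rdp1 and ade3 (I:1329062-1329090): acacatatactcgatggttaaagcaattt
shared by arb2 and crb3 (I:2310271-2310294): ttttccaatgagattataacaaaa

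Long overlaps belonged to the 3 members with long 3′ untranslated ends. The dcr1 gene shared 1903 bases with spn6, which encodes a septin. The whole 3′ untranslated end of dcr1 (1217 bases) lay across spn6 and held 1135 of its 1143 coding bases, and spn6 in turn crossed 686 coding bases of dcr1. The 2 coding sequences themselves were 20 bases apart. In hrr1 the 3′ untranslated end ran across 1321 bases of dms1 and all 825 of its coding bases. That of cid12 ran across 2 whole genes, naa50 and trp663, which encode an N-terminal acetyltransferase subunit and a TRP-like ion channel, with 435 and 2064 coding bases. It ended 54 bases before a further convergent gene, SPCC663.15c. Coding bases of the opposite strand were thus held by 3 of the 9 genes, against 13.9% of protein-coding genes (17.2% in the length range of the set). An overlap with any protein-coding gene of the opposite strand was found for 4 of the 9, near the 37.6% of all.

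**Figure D4:**
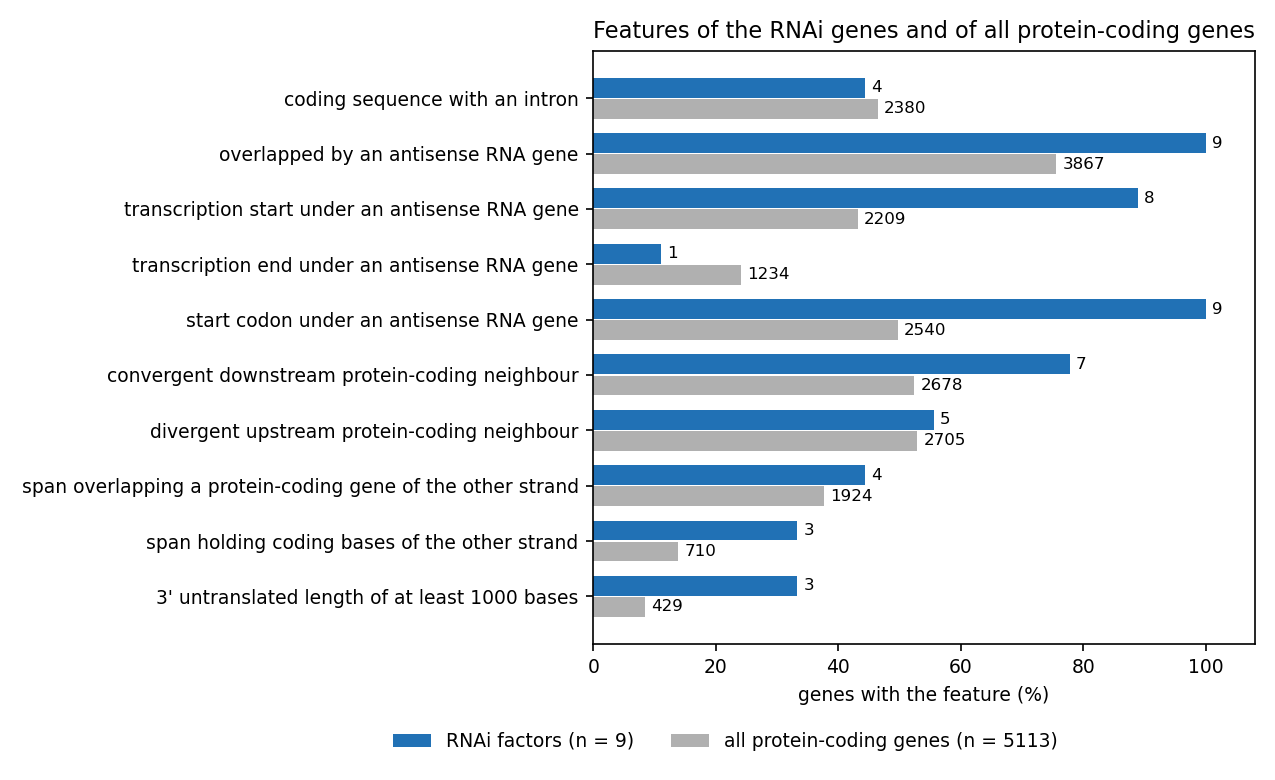
Percentage of genes with each feature, for the 9 RNAi factors (blue, upper bar) and all 5113 protein-coding genes (grey, lower bar), with the number of genes beside each bar. The blue bars reach 9 of 9 for an antisense RNA gene over the gene and over the start codon, and lie near the grey ones for coding introns and divergent neighbours.

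Other genes of heterochromatin formation gave counts on both sides of these shares. Of 5 further RNAi genes (ers1, dsh1, stc1, eri1 and cid14), all 5 had a convergent neighbour and overlapped it, and 3 had an antisense RNA gene (ers1, dsh1 and cid14). Their coding introns numbered 21, with 10 in ers1, 8 in dsh1 and 3 in eri1. Of 4 genes for H3K9 methylation (clr4, rik1, raf2 and cul4), 4 had an antisense RNA gene, 2 had a convergent neighbour and none had a coding intron. Among 6 genes for HP1 proteins and the SHREC complex (swi6, chp2, clr1, clr2, clr3 and mit1) the numbers were 4, 3 and 1. Over all protein-coding genes 75.6% had an antisense RNA gene, 52.4% a convergent neighbour and 46.5% a coding intron. Of the convergent genes 55.8% overlapped their neighbour. Start codons under an antisense RNA gene numbered 3 of 5, 2 of 4 and 3 of 6 in the 3 lists. The share was 49.7% over all protein-coding genes, and the count was 9 of 9 in the RNAi set. A 3′ untranslated end of at least 1000 bases occurred in eri1 (1382 bases) and clr4 (2579 bases) of these lists.

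The second deposited annotation, which follows the ectopic reporter, gave the 9 genes the same coding lengths, introns and 3′ untranslated lengths, and a different 5′ end for each. It placed the transcription start farther upstream for 7 of them and nearer for ago1 and cid12. The 5′ untranslated length was 34 bases for ago1, 284 for dcr1, 582 for rdp1, 83 for tas3, 805 for chp1, 394 for hrr1, 3 for cid12, 148 for arb1 and 163 for arb2. The largest change was at rdp1 (350 bases) and the smallest at dcr1 (17 bases). Over 4360 protein-coding genes with a 5′ end in both annotations, 27 (0.619%) had the same length, so a differing 5′ end was the rule in the genome. The 3′ length was the same for 5061 of 5095 shared genes (99.3%).

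**Figure D5:**
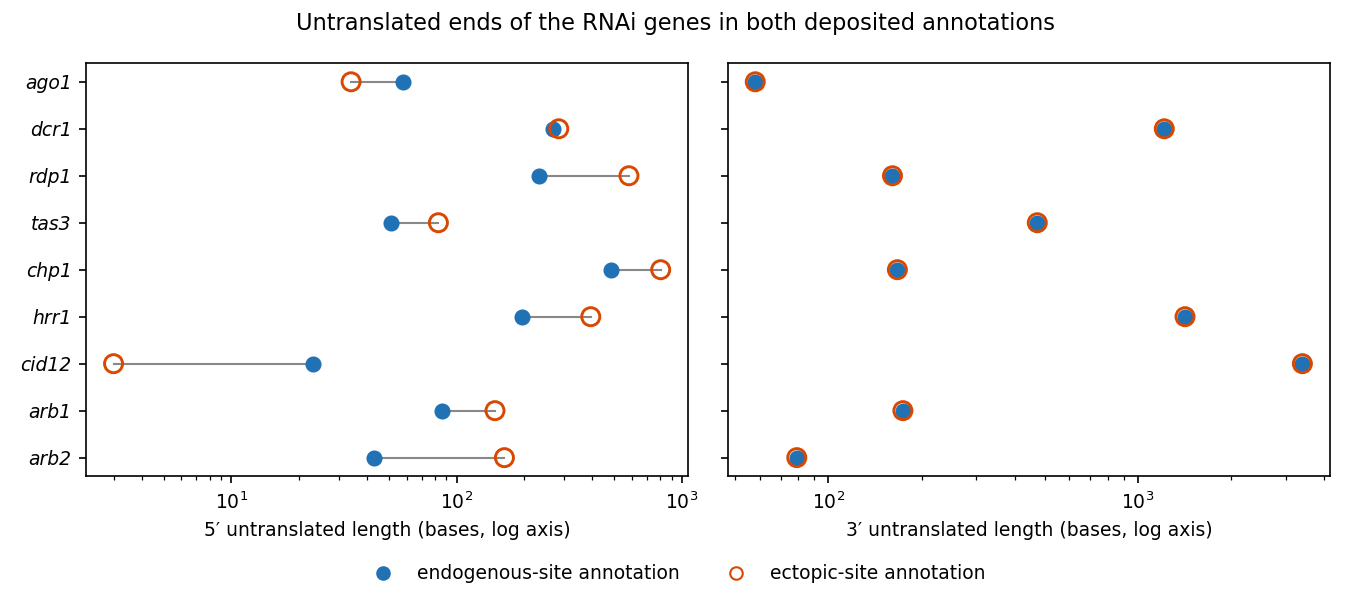
Length of the 5′ (left) and 3′ (right) untranslated end of each RNAi gene in bases (log axes), in the endogenous-site annotation (filled) and the ectopic-site annotation (open). The 3′ symbols coincide in all 9 rows, whereas the 5′ lengths differ in each, by 17 (dcr1) to 350 (rdp1) bases.

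Antisense RNA genes depended on which annotation was read. In the ectopic-site annotation arb1 alone was overlapped by one, SPNCRNA.771, against 21.3% of its 5120 protein-coding genes. That file listed 1782 RNA genes, against 7486 in the endogenous-site annotation, and 1 of the 15 antisense RNA genes of the set was in it. A convergent neighbour was found for 7 of the 9 genes in both, against 52.4% (endogenous-site) and 52.3% (ectopic-site) of protein-coding genes.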

How the data were processed

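The deposited files of the series are 2 genome annotations. The authors deposited start and end coordinates in bases, counted from 1, and other fields such as phase, with no read count or signal for any library; read depth is unknown. PomBase is the source named in the first file (endogenous-site) and Geneious 7.1.5 in the second (ectopic-site), per the file headers and rows. Alignment used Trimmomatic and BWA, per the submitters' processing notes; the build is not given in the sources used here.

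Members and lists were chosen with earlier results of these data known. The text names the members, their neighbours within 2000 bases and the genes of 3 comparison lists. The first mRNA of each gene was used (8 protein-coding genes had more, no member did). An overlap was 1 shared base. The next gene past an end was the nearest that reached beyond it without passing the other end; overlapping genes counted as nearest, and of these the one with fewer shared bases. Percentiles count genes with an equal or lower value. Sequences and splice sites were read from ASM294v3 (RefSeq) at its own annotation, whose gene models gave the 9 members the same lengths. Chromosome III positions there differ from the deposited ones. No test was made. Python 3.11.15, numpy 2.4.6 and matplotlib 3.10.9 were used.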

Additional observations from a re-analysis of the deposited data

How the results depend on the processing

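Of 24 alternatives, 18 left a count within 1.5 times or a median length as it was, and 6 moved it. Some of these 18 could hardly differ. The ASM294v3 settings use gene models that gave the 9 members the same lengths. Setting missing ends to 0 changes nothing, since all 9 had both ends annotated. The median 5′ untranslated length was 163 bases by the ectopic-site file, against 86. The number of members under an antisense RNA gene was 1 in the ectopic-site annotation, against 21.3% of its protein-coding genes. It was 9 when at least 100 shared bases, an overlap with the coding sequence or ASM294v3 was used. The shares of all protein-coding genes at these settings were 73.7%, 71.3% and 75.6%. The transcription start lay under an antisense RNA gene for 5 members with the ectopic-site starts, against 8, since the starts of rdp1, chp1 and arb2 then lay outside the RNA genes. Genes within reach numbered 117 in a window of 5000 bases, 27 when protein-coding genes alone were counted and 37 in the ectopic-site annotation, against 69. Fewer annotated RNA genes and wider windows change these counts by construction. A convergent neighbour was found for 8 members by the nearest gene of any type (73% of all protein-coding genes) and for 6 by coding ends (54.8%), where rpl4302 takes the place of ucp8 beside tas3. The comparison by coding ends, and the ectopic-site values for untranslated ends, transcription starts, convergent neighbours and genes within reach, were chosen after seeing the data. No paired analysis was possible because the values used describe the genome annotation, carry no replicate number and were not tested.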

Other observations

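The phase field of the coding rows in the endogenous-site annotation held 0 in 10181 of 10182 rows of protein-coding genes. Phase gives the number of bases to skip before the next whole codon, and it was compared with the coding lengths before each row. It differed in at least 1 row for 3 of the 4 members with coding introns, with 3 of 4 rows in hrr1, 3 of 5 in arb1 and 3 of 6 in arb2, and in none of 2 rows in ago1. Among all 2380 protein-coding genes with a coding intron it differed in 1778. Translating these rows by their phase field would give another reading frame than translating the joined coding sequence.

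A convergent neighbour was found for 7 members and for 5 further RNAi genes. Those of ago1, arb2 and ers1 were genes of RNA processing, picked out after their values were seen. Others were not, such as ade3 (purine synthesis) beside rdp1 and spn6 (a septin) beside dcr1. The mmi1 gene lay 17 bases from ago1, crb3 shared 24 bases with arb2, and ipi1, annotated in ASM294v3 as an rRNA processing gene, shared 61 bases with the further RNAi gene ers1. How often such neighbours occur elsewhere in the genome was not tested.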
